A study of Homo sapiens with 11 samples.

Results

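The E2F family of transcription factors has 8 members in the human genome, E2F1 to E2F8, and all 8 were found among the 22109 genes that had a transcript cluster annotated with a single gene symbol. A transcript cluster is the group of array probes read together for a transcribed locus, and each member had exactly 1 cluster. Of the 8 members, 7 passed the level filter and are among the 12147 genes tested. The activators are E2F1, E2F2 and E2F3, and the repressors are E2F4, E2F5, E2F6, E2F7 and E2F8. The members were chosen by gene name, with earlier results of these arrays known.

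RNA of MV4-11 cells, a human cell line of acute myeloid leukaemia with rearranged KMT2A, was read on 11 Affymetrix arrays, 1 array per condition. In the knockdown experiment, 8 arrays held cells transduced with all combinations of shRNAs to RUNX1, RUNX2 and RUNX3: all 3 together (shRUNX1+shRUNX2+shRUNX3, the triple knockdown), the pairs shRUNX1+shRUNX3, shRUNX1+shRUNX2 and shRUNX2+shRUNX3, each shRNA alone, and a luciferase shRNA control without any of them (shLuc). All 8 cultures, shLuc included, received doxycycline at 3 µM for 24 hours. In the compound experiment, cells were kept for 6 hours with Chb-M' or Chb-50, which the labels call alkylating PIP conjugates, each at 1 µM, or with DMSO. The labels do not say that the arrays came from separate cultures or days, so p-values reflect the spread of these arrays alone, and that spread may be technical. In bulk RNA, fewer cells of a type, such as cells in a given phase of the cell cycle, and less RNA per cell cannot be told apart.

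E2F factors bind DNA, most of them as dimers with a DP protein, in front of genes for DNA replication and cell cycle progression. The pocket protein RB1 holds the activators E2F1, E2F2 and E2F3 in check until cyclin-dependent kinases phosphorylate it late in G1, while E2F4 and E2F5 act mostly with the pocket proteins RBL1 and RBL2 to keep the same genes silent in resting cells. E2F6 represses without a pocket protein, through polycomb-type complexes, and E2F7 and E2F8 bind without a DP partner, are themselves E2F targets, and repress E2F genes late in S phase.

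Among the myeloid markers checked, 8 of the 9 in the table passed the filter, with LYZ highest (mean log2 level 11.4) and the monocyte receptor CD14 lowest (2.42). In the lymphoid list 1 of 5 passed, in the erythroid and megakaryocyte list 2 of 3, and in the epithelial and fibroblast list 2 of 7. The targeted genes checked the labels only in part. RUNX2 lay between 5.56 and 5.82 on the arrays with its shRNA, against 6.00 to 6.30 without it. RUNX3 lay between 7.65 and 7.87 with its shRNA, against 8.15 on shLuc, 8.24 on shRUNX2, 8.37 on the array labelled shRUNX1+shRUNX2 and 7.70 on the array labelled shRUNX1. The one cluster listed for RUNX1, shared with LOC100506403, read 3.96 on the triple knockdown, 4.03 on shRUNX1+shRUNX3, 4.26 on the array labelled shRUNX1+shRUNX2 and 4.12 on the array labelled shRUNX1, against a range of 4.20 to 4.45 over the 4 arrays lacking that shRNA. The labels shRUNX1 and shRUNX1+shRUNX2 are therefore only weakly checked by these transcripts.

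Promoters are shown for E2F1, E2F2 and E2F7, of the members whose levels lay low on the same arrays (E2F8, the other one, is not shown), and for E2F3, an activator whose level did not. The sequences are the 100 bases before the annotated start, 5′ to 3′ on the gene's strand, from RefSeq on GRCh38.p14. Capitals mark matches on either strand to the E2F motif TTTNNCGN with each N a C or G. E2F1 lies on the minus strand (window chr20:33686386-33686485), as do E2F2 (chr1:23531234-23531333) and E2F7 (chr12:77065570-77065669), and E2F3, shown for the first of its 2 listed starts, lies on the plus strand (chr6:20401779-20401878).
E2F1: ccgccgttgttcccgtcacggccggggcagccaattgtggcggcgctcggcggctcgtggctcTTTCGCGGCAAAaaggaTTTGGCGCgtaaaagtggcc
E2F2: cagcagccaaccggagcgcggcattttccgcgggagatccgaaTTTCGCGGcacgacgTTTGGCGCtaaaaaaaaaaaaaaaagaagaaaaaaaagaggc
E2F3: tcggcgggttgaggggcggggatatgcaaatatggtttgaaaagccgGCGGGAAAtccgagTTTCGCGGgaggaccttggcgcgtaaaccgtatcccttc
E2F7: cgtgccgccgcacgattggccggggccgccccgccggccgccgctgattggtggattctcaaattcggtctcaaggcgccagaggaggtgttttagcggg

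In the 300-base windows of the RefSeq table, which run from 250 bases before to 50 bases after the start, E2F1 had 3 matches, at 37, 33 and 20 bases before the start, of which the first 2 overlap. E2F2 had 2 matches, at 57 and 42 bases before the start. E2F3 had 2 at its first start, at 53 and 39 bases, and 0 at its second. E2F6 had 2, at 183 and 78 bases, while E2F4 and E2F7 had 0. The motif occurred in 6.19% of the 35116 promoters of the table. The RUNX motif, TGTGGT or TGCGGT on either strand, occurred in 19.6% of all promoters and in 0 of the 7 windows of these 6 members. A match describes letters only, and its absence says nothing about binding of a factor elsewhere.

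With the RUNX1 and RUNX3 shRNAs together, transcripts of E2F1, E2F2, E2F7 and E2F8 lay lower than on any other knockdown array, while E2F3, E2F4 and E2F6 did not show this pattern and varied by 0.48 (E2F3) at most. The split did not follow the activator and repressor classes, since 2 activators and 2 repressors made up the low group. Log2 levels are given first for the 4 arrays with the RUNX1 shRNA and then for the 4 without it.

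E2F1, the activator best known for driving S phase entry, had levels of 5.96 on the triple knockdown, 5.67 on shRUNX1+shRUNX3, 6.65 on the array labelled shRUNX1+shRUNX2 and 7.09 on the array labelled shRUNX1, against 7.09 on shRUNX2+shRUNX3, 7.25 on shRUNX3, 7.15 on shRUNX2 and 7.20 on shLuc. Both arrays with the RUNX1 and RUNX3 shRNAs were low, and the 4 arrays without the RUNX1 shRNA spanned a narrow range. The array labelled shRUNX1 lay inside that range, so the groups overlapped.

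E2F2, the second activator, read 5.43 on the triple knockdown, 5.21 on shRUNX1+shRUNX3, 6.04 on the array labelled shRUNX1+shRUNX2 and 6.16 on the array labelled shRUNX1, against 6.55 on shRUNX2+shRUNX3, 6.44 on shRUNX3, 6.25 on shRUNX2 and 6.20 on shLuc. It was the only tested member whose 4 arrays with the RUNX1 shRNA all lay below all 4 without it, 1 of 7 members against 4.73% of all genes tested. On shRUNX3 and shRUNX2+shRUNX3 it lay above shLuc, by 0.24 and 0.34 on the log2 scale.

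For E2F3, the activator with several isoforms read here as 1 cluster, the levels were 6.74 on the triple knockdown, 6.35 on shRUNX1+shRUNX3, 6.47 on the array labelled shRUNX1+shRUNX2 and 6.25 on the array labelled shRUNX1, against 6.66 on shRUNX2+shRUNX3, 6.38 on shRUNX3, 6.66 on shRUNX2 and 6.53 on shLuc. The triple knockdown was its highest array and the array labelled shRUNX1 its lowest, and the groups overlapped.

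E2F7, an atypical repressor that also responds to p53, had 5.44 on the triple knockdown, 5.67 on shRUNX1+shRUNX3, 6.21 on the array labelled shRUNX1+shRUNX2 and 6.75 on the array labelled shRUNX1, against 6.75 on shRUNX2+shRUNX3, 6.80 on shRUNX3, 6.75 on shRUNX2 and 7.02 on shLuc. It was the one member of the low group that was lowest on the triple knockdown rather than on shRUNX1+shRUNX3. The value on the array labelled shRUNX1, 6.74832, was the same as on shRUNX2 and on shRUNX2+shRUNX3. Such ties were not particular to E2F7: E2F4 read 8.85935 on both the array labelled shRUNX1+shRUNX2 and the triple knockdown, and E2F5 repeated values too.

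E2F8, the other atypical repressor, read 5.95 on the triple knockdown, 5.78 on shRUNX1+shRUNX3, 7.07 on the array labelled shRUNX1+shRUNX2 and 7.50 on the array labelled shRUNX1, against 7.29 on shRUNX2+shRUNX3, 7.43 on shRUNX3, 7.45 on shRUNX2 and 7.57 on shLuc. Its range over the knockdown arrays, 1.79, was the widest of the 8 members. Among all genes tested, its SD over these 8 arrays stood at the 99.9th percentile, beside the 99.8th for E2F1, the 99.7th for E2F7 and the 98.7th for E2F2.

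The remaining repressors varied little. E2F4, the main E2F of resting cells, lay between 8.77 and 8.97 over the knockdown arrays, with an SD at the 10.5th percentile of all genes tested, and was below its partner array in all 4 pairs that differ in the RUNX1 shRNA, with differences from -0.18 to -0.01. E2F6 lay between 5.24 and 5.51, at the 29.6th percentile, and was also lower in all 4 pairs, with differences from -0.27 to -0.07. E2F5 lay between 2.09 and 2.54 over all 11 arrays, under the filter of 3.80, and was not tested.

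**Figure D1:**
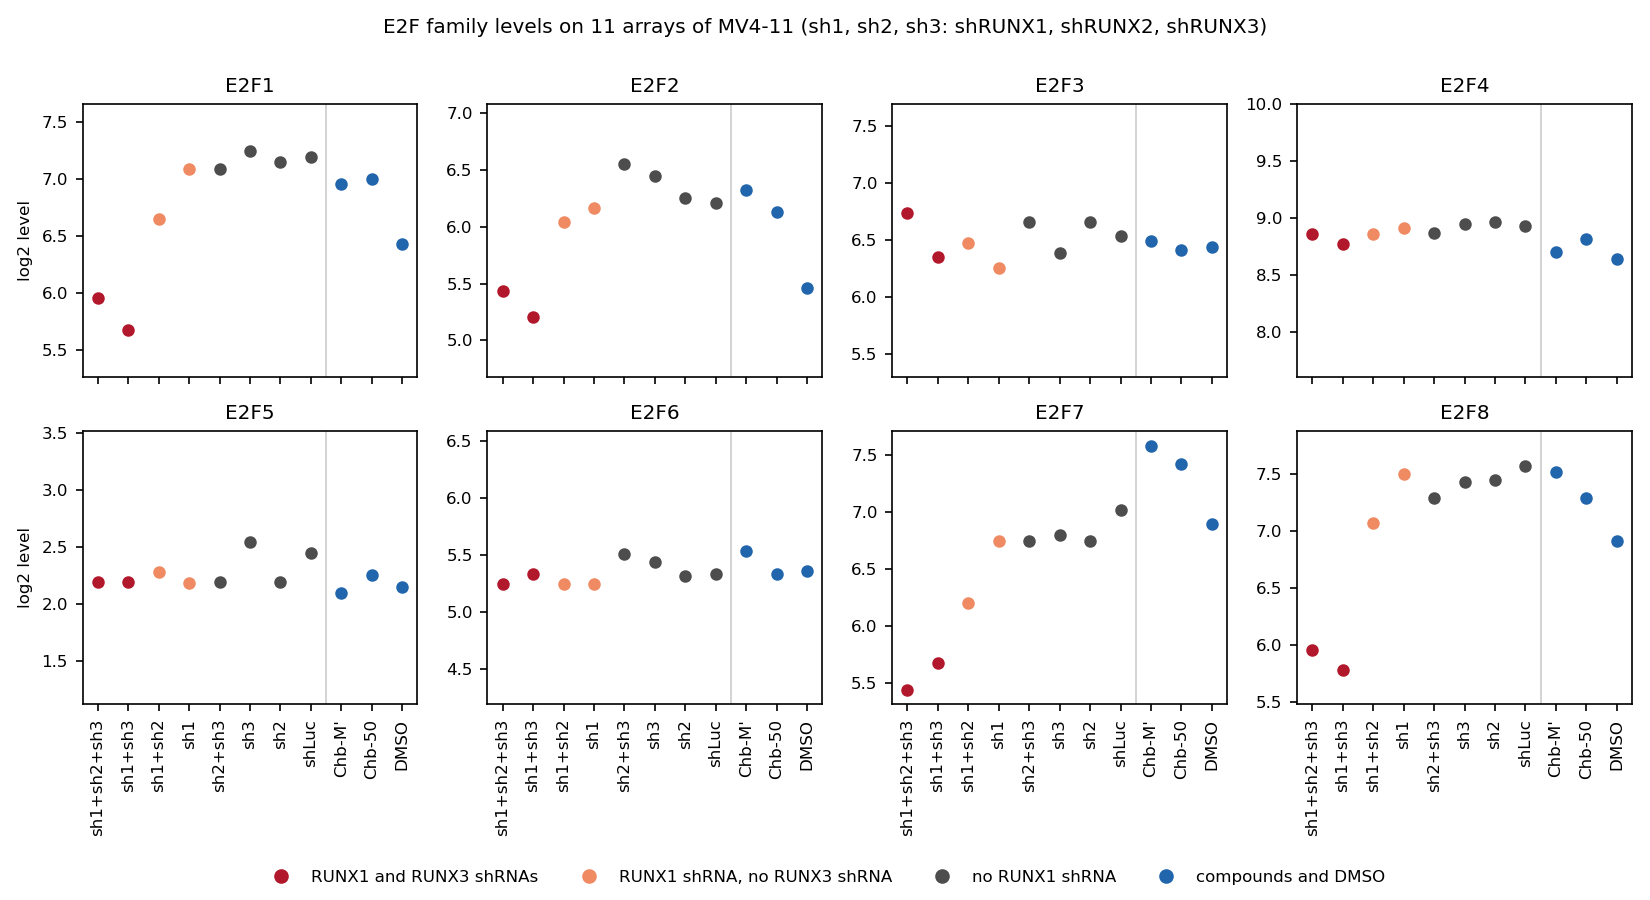
Log2 level of each E2F member on each array, 1 point per array, with sh1, sh2 and sh3 for the RUNX shRNAs. Each panel spans the same log2 width. E2F1, E2F2, E2F7 and E2F8 have both red points, the arrays with the RUNX1 and RUNX3 shRNAs, below all other knockdown arrays, while E2F3, E2F4, E2F5 and E2F6 do not.

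Relative to shLuc, E2F8 was at 28.9% on shRUNX1+shRUNX3, and it was at 32.6% for the triple knockdown, E2F1 at 34.8% and 42.3%, E2F7 at 39.5% and 33.6%, and E2F2 at 50.1% and 58.6% on the same 2 arrays. E2F1, E2F7 and E2F8 were thus at least 2-fold lower on each of these arrays (3 of 7), where 0.873% of all genes tested were at least 2-fold lower on the triple knockdown and 1.49% on the array with shRUNX1+shRUNX3. No member was 2-fold lower or higher than shLuc on the other 5 arrays. These are differences between single arrays with no replicate check.

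The RUNX1 shRNA was the sole labelled difference within 4 pairs of arrays. With the RUNX3 shRNA present, E2F1 differed by -1.57 (shRUNX1+shRUNX3 minus shRUNX3) and -1.13 (triple knockdown minus shRUNX2+shRUNX3). Without it, E2F1 differed by -0.11 (the array labelled shRUNX1 minus shLuc) and -0.50 (the array labelled shRUNX1+shRUNX2 minus shRUNX2). In the same order, the differences were -1.24, -1.11, -0.04 and -0.21 for E2F2, -1.12, -1.31, -0.27 and -0.54 for E2F7, and -1.65, -1.33, -0.07 and -0.38 for E2F8. All 4 pairs were therefore negative for each of the 4 genes, as they were for E2F4 and E2F6. For the 4 genes, both differences with the RUNX3 shRNA were larger in size than both without it. The share of all genes with either pattern was not counted, so neither can be set against a background.

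**Figure D2:**
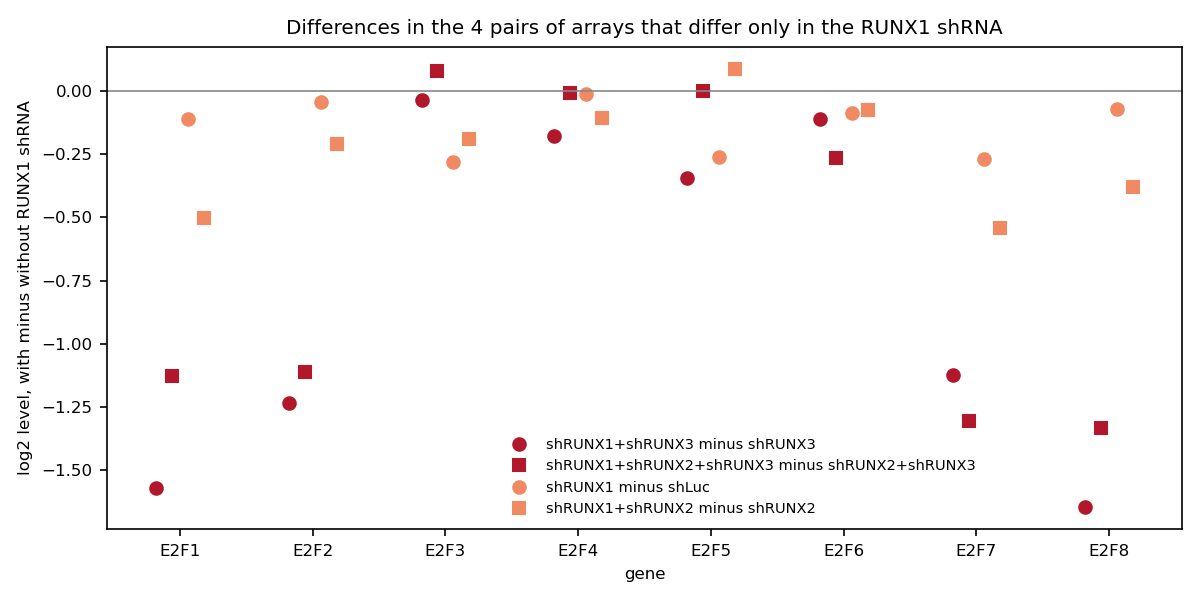
With minus without RUNX1 shRNA difference in log2 level, in the 4 pairs whose labels differ in nothing else. Red points are pairs that carry the RUNX3 shRNA and orange points pairs that do not. For E2F1, E2F2, E2F7 and E2F8 the red points lie between -1.65 and -1.11 and the orange points between -0.54 and -0.04.

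The effect of each shRNA was fitted across all 12147 genes with limma, as the log2 difference with minus without that shRNA over the 8 knockdown arrays. For the RUNX1 shRNA the estimates were -0.86 for E2F8 (SE 0.254, limma adjusted p = 0.132), -0.81 for E2F7 (SE 0.172, adjusted p = 0.0977), -0.65 for E2F2 (SE 0.207, adjusted p = 0.146) and -0.83 for E2F1 (SE 0.223, adjusted p = 0.117). E2F3, E2F4 and E2F6 had -0.11, -0.08 and -0.13. All 7 estimates were negative, where 47.2% of all genes were negative. Of the 7 members 0 passed (0% of all genes), while 4 of 7 were lower with an unadjusted p under 0.05, against 10% of all genes. The median estimate was -0.65 over the members and 0.01 over all genes. Without the array labelled shRUNX1, the same limma fit called E2F1 (-1.05, adjusted p = 0.0345), E2F7 (-0.98, adjusted p = 0.0344) and E2F8 (-1.09, adjusted p = 0.0426), all lower, and 817 genes in all. Every remaining array with the RUNX1 shRNA then carries another RUNX shRNA as well.

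For the RUNX3 shRNA the estimates were -0.79 for E2F8, -0.53 for E2F1 and -0.51 for E2F7, and -0.26 for E2F2. None of the 7 members passed (0% of all genes), with the smallest limma adjusted p of 0.473, and 3 of 7 had an unadjusted p under 0.05 and were lower, against 4.82% of all genes. With the RUNX2 shRNA no member passed either (0% of all genes). E2F3 was higher on all 4 arrays than on their partners without the RUNX2 shRNA, by 0.25 on average (SE 0.0775, limma adjusted p = 0.965), the 1 of 7 members with an unadjusted p under 0.05 and a higher level, against 3.05% of all genes.

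The dependence of the RUNX1 shRNA difference on the RUNX3 shRNA was tested as an interaction, the difference with the RUNX3 shRNA minus the difference without it. This interaction was chosen with earlier results of these arrays known. It was -1.27 for E2F8 (SE 0.197), the third lowest value of the 12147 genes, -1.05 for E2F2 (SE 0.139), -1.05 for E2F1 (SE 0.232) and -0.81 for E2F7 (SE 0.171). The values for E2F3, E2F4 and E2F6 were 0.26, -0.03 and -0.11. None of the members passed over all genes (0%), with limma adjusted p of 0.249 for E2F2, E2F7 and E2F8 and 0.252 for E2F1. At an unadjusted p under 0.05, 4 of 7 were lower, against 6.61% of all genes.

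The same model gives the RUNX1 shRNA difference separately for arrays with and without the RUNX3 shRNA, a split chosen after the data were seen. With the RUNX3 shRNA, E2F8 fell by 1.49 (SE 0.139, limma adjusted p = 0.0111), E2F1 fell by 1.35 (SE 0.164, adjusted p = 0.0147), E2F7 fell by 1.22 (SE 0.121, adjusted p = 0.0117) and E2F2 fell by 1.17 (SE 0.0981, adjusted p = 0.0110). These 4 of 7 members compare with 4.95% of all genes called lower, and 5 of 7 were lower at an unadjusted p under 0.05, E2F6 (-0.19) added, against 12.7% of all genes. E2F3 had 0.02, or -0.0044 after centring each array on its median, and E2F4 had -0.09. Without the RUNX3 shRNA, E2F7 had -0.40, E2F1 -0.31, E2F3 -0.23, E2F8 -0.23 and E2F2 -0.13. There, 0 of 7 members passed (0% of all genes) and 2 of 7, E2F7 and E2F3, had an unadjusted p under 0.05, against 3.38% of all genes.

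These 4 calls rest on 2 arrays with and 2 without the RUNX1 shRNA. All 4 ended when shRUNX3, shRUNX1+shRUNX3 or shRUNX2+shRUNX3 was left out, with limma adjusted p from 0.101 to 0.135 and estimates from -1.50 to -1.07, and 0 of 12147 genes passed in each of those 3 fits. The array labelled shRUNX1, which enters the arm without the RUNX3 shRNA, had a RUNX3 level inside the range of the arrays with it, and the part of this in the result was not tested.

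**Figure D3:**
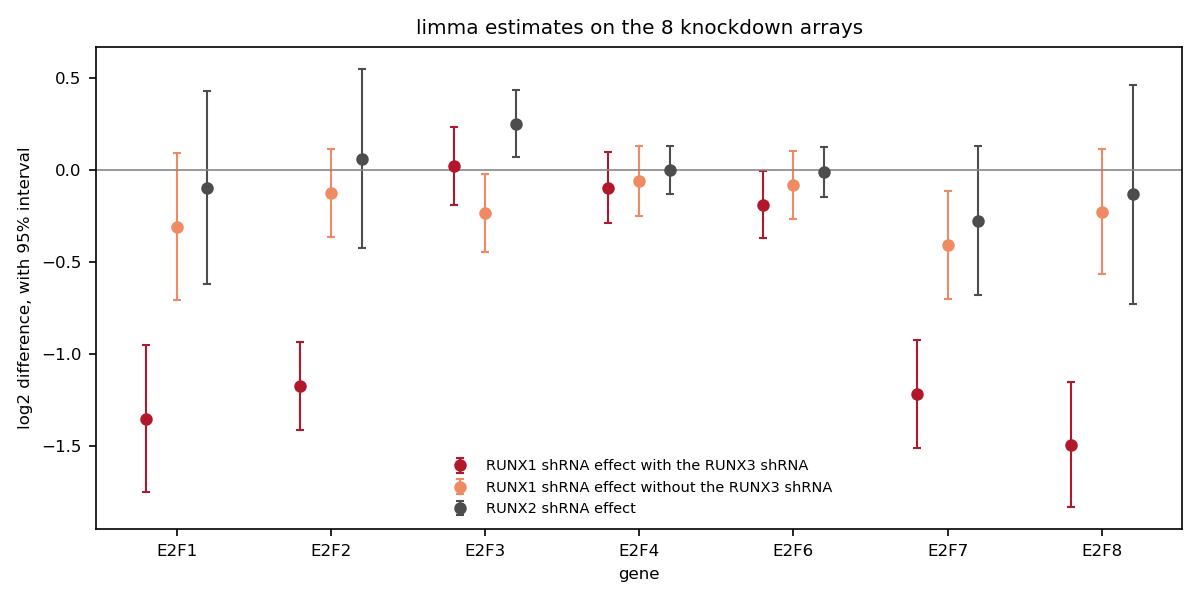
limma estimates with 95% intervals for the 7 tested members: the RUNX1 shRNA difference with (red) and without (orange) the RUNX3 shRNA, and the RUNX2 shRNA effect (grey). The red intervals of E2F1, E2F2, E2F7 and E2F8 lie below their orange intervals, and those of E2F3, E2F4 and E2F6 overlap them.

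Over 0, 1, 2 or 3 targeted RUNX genes, the slope was -0.59 per target for E2F8 (SE 0.170, limma adjusted p = 0.149), -0.53 for E2F7 (SE 0.115, adjusted p = 0.116), -0.48 for E2F1 (SE 0.153, adjusted p = 0.160) and -0.28 for E2F2 (SE 0.144, adjusted p = 0.322). None of the 7 members passed, against 0.00823% of all genes (1 gene), and 3 of 7 (E2F1, E2F7 and E2F8) had an unadjusted p under 0.05 and a negative slope, against 9.11% of all genes. The levels were not ordered by that number: E2F1, E2F2 and E2F8 were lower on shRUNX1+shRUNX3, with 2 targets, than on the triple knockdown. Without shRUNX2+shRUNX3, also a double knockdown, E2F7 passed (-0.59, limma adjusted p = 0.0369), 1 of 234 genes called among all genes tested. On that array E2F7 differed from shLuc by -0.27, E2F8 by -0.28, E2F1 by -0.11 and E2F2 by 0.34.

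By class, the activators and the tested repressors both had their lowest means on the triple knockdown and shRUNX1+shRUNX3. On the triple knockdown, the mean log2 difference from shLuc was -0.60 for the 3 activators and -0.84 for the 4 tested repressors, and on shRUNX1+shRUNX3 it was -0.90 and -0.82. Each mean mixes members that lay low with members that did not: E2F7 and E2F8 alone averaged -1.60 and -1.57 on these 2 arrays. On the array labelled shRUNX1+shRUNX2, activators averaged -0.26 and tested repressors -0.37, and on the array labelled shRUNX1 they averaged -0.14 and -0.11. On shRUNX2, shRUNX3 and shRUNX2+shRUNX3 the activator mean lay slightly above shLuc (0.04, 0.05 and 0.12). The mean of the tested repressors lay slightly below it (-0.09, -0.06 and -0.11). Members of both classes went against these means. On shRUNX2, E2F1 had -0.05 and E2F4 0.04. On shRUNX3, E2F3 had -0.15, E2F4 0.02 and E2F6 0.10. On shRUNX2+shRUNX3, E2F1 had -0.11 and E2F6 0.18.

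Genes known as E2F targets lay lowest on the same arrays. Of the 34 listed, 32 had a tested cluster. Their median difference from shLuc was -0.86 on the triple knockdown and -1.04 on shRUNX1+shRUNX3, with all 32 lower on both, and -0.45 on the array labelled shRUNX1+shRUNX2, also with all 32 lower. It was -0.16 on the array labelled shRUNX1, and -0.08, -0.04 and -0.06 on shRUNX2, shRUNX3 and shRUNX2+shRUNX3. The list was drawn up with earlier results of these arrays known, so its direction is not independent evidence.

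**Figure D4:**
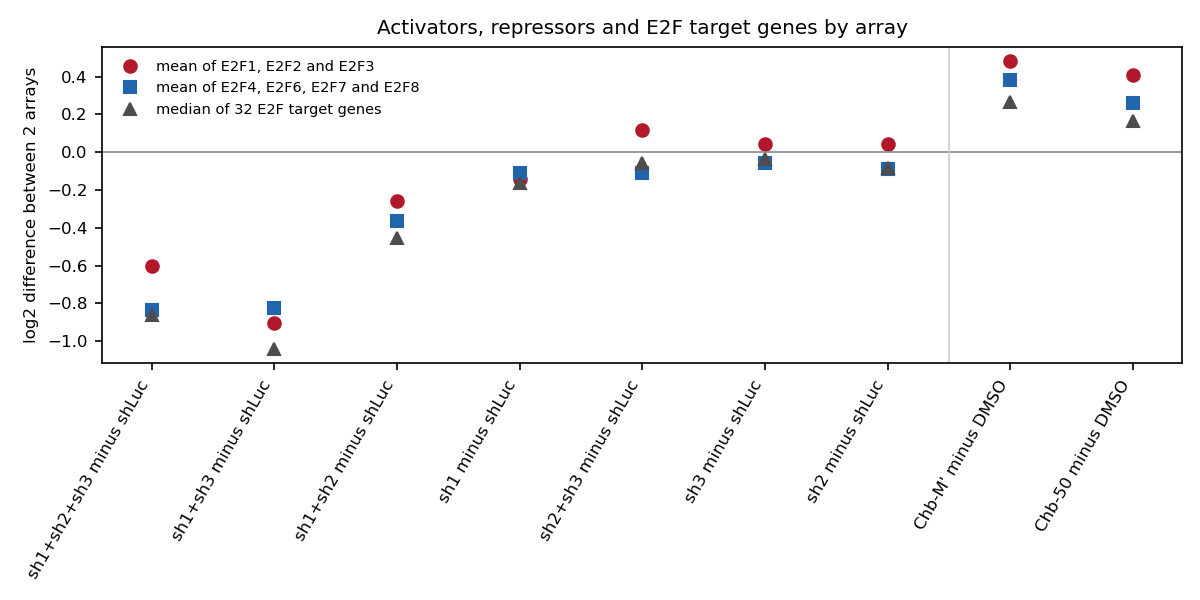
Mean log2 difference of the 3 activators (circles) and of the 4 tested repressors (squares), and median of the 32 tested E2F target genes (triangles), for each knockdown array minus shLuc and each compound array minus DMSO. All 3 are lowest on shRUNX1+shRUNX3 and the triple knockdown, and all 3 lie above 0 for Chb-M' and Chb-50.

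In the limma fit of the RUNX1 shRNA difference with the RUNX3 shRNA, 31 of the 32 target genes fell, against 4.95% of all genes called lower, with a median of -0.92 over the list against 0.02 over all genes. The replication initiation factor MCM10 fell by 1.28 (adjusted p = 0.0110), thymidylate synthase TYMS fell by 1.28 (adjusted p = 0.0133) and the licensing factor CDC6 fell by 1.23. The helicase subunit genes MCM2 to MCM7 fell as well, with estimates from -1.0 for MCM2 to -0.57 for MCM7. RPA2, a subunit of the single-strand binding complex, was the one that did not pass (-0.16). Without the RUNX3 shRNA all 32 estimates were negative, where 50.5% of all genes were negative. Their median was -0.26, and 0 passed. As for the family itself, no gene passed when shRUNX3, shRUNX1+shRUNX3 or shRUNX2+shRUNX3 was left out.

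The partners and regulators of E2F proteins split in the same fit. TFDP1, the main DP dimer partner, fell by 1.17 (SE 0.172, adjusted p = 0.0191), whereas TFDP2 had 0.00, so 1 of 2 tested DP genes fell, where 4.95% of all genes were called lower. Of the pocket proteins, RBL1, itself an E2F target, fell by 0.50 (adjusted p = 0.0428), while RB1 (0.00) and RBL2 (0.18) did not pass. Among 8 G1 cyclins and their kinases 4 fell, against the same 4.95%: CCNE2 (-1.40) and CCNE1 (-1.19), the E-type cyclins that activate CDK2, CDK2 itself (-0.81) and CCND3 (-0.76). One of the 8, the D-cyclin kinase CDK6, rose by 0.41 (adjusted p = 0.0274), where 3.9% of all genes were called higher. CDK4 (-0.25), CCND1 (0.02) and CCND2 (-0.08) did not pass.

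In the MuvB list, the core complex that serves as a repressor with E2F4 and as an activator of mitotic genes with B-MYB and FOXM1, 4 of 6 tested genes fell, against 4.95% of all genes: FOXM1 (-1.48), MYBL2, which encodes B-MYB (-1.12), LIN9 (-0.52) and LIN54 (-0.51). LIN52 (-0.20) and LIN37 (0.56) did not pass. None of the 5 tested CDK inhibitors passed, with estimates from -0.35 for CDKN2D to 0.13 for CDKN1C. Of the 8 tested polycomb partners of E2F6, 0 passed, with estimates from -0.31 for L3MBTL2 to 0.23 for MGA. Of 8 germline genes that E2F6 silences in mouse, 7 lay below the filter on all arrays, and HORMAD1 lay between 8.0 and 8.7 on all of them.

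In that fit 5 of 8 tested myeloid markers had a positive estimate and 3 a negative one, where 45.9% of all genes were negative. The integrin ITGAM, which rose, was the 1 of 8 that passed, against 3.9% of all genes called higher. The list's summed log2 level lay between 63.5 and 64.7 over the knockdown arrays, and the part of a shift in cell state in the E2F levels was not tested.

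After 6 hours with a compound, E2F1, E2F2, E2F7 and E2F8, the same 4 members, lay furthest above DMSO, and none passed the test. E2F4 also lay above DMSO, by 0.06 with Chb-M' and 0.18 with Chb-50. E2F7 had 7.58 with Chb-M' and 7.42 with Chb-50, against 6.90 with DMSO, and both compound arrays were above its level on every knockdown array, of which shLuc was highest at 7.02. E2F2 read 6.32 with Chb-M' and 6.13 with Chb-50, against 5.46 with DMSO. For E2F1 the levels were 6.95 with Chb-M' and 6.999 with Chb-50, against 6.43 with DMSO, and for E2F8 they were 7.52 and 7.29, against 6.91 with DMSO.

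Each of these 4 genes was lowest on DMSO among the 3 arrays of the compound experiment, as was E2F4. DMSO minus shLuc was -0.77 for E2F1, -0.75 for E2F2 and -0.66 for E2F8, but only -0.12 for E2F7. With Chb-M', E2F2 and E2F8 lay inside the range of the 4 knockdown arrays lacking the RUNX1 shRNA, and E2F1 lay below it. The DMSO array and shLuc differ in doxycycline, shRNA vector and time, which cannot be told apart. Both compound differences share the DMSO array.

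The pooled-spread limma fit over all 11 arrays takes the compound arrays to vary like the knockdown arrays. Chb-M' minus DMSO was 0.86 for E2F2 (95% interval -0.11 to 1.84, adjusted p = 0.413), 0.68 for E2F7 (-0.13 to 1.49), 0.61 for E2F8 (-0.59 to 1.80) and 0.52 for E2F1 (-0.53 to 1.58). E2F6, E2F4 and E2F3 had 0.17, 0.06 and 0.05. All 7 estimates were positive, where 44.9% of all genes were negative and the median over all genes was 0.02. E2F3 and E2F4 lay near that median. Of the 7 members 0 passed, against 0.609% of all genes. None of the members was 2-fold higher, against 0.313% of all genes.

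Chb-50 minus DMSO was 0.67 for E2F2 (95% interval -0.31 to 1.64, limma adjusted p = 0.728), 0.57 for E2F1 (-0.48 to 1.62), 0.52 for E2F7 (-0.29 to 1.33) and 0.38 for E2F8 (-0.82 to 1.57). E2F4, E2F3 and E2F6 had 0.18, -0.02 and -0.03. None passed (0% of all genes), and none was 2-fold higher, against 0.14% of all genes.

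Chb-M' and Chb-50 were compared at the same dose and time. Their difference, Chb-M' minus Chb-50, was -0.05 for E2F1 (95% interval -1.10 to 1.01), 0.19 for E2F2 (-0.78 to 1.17), 0.07 for E2F3 (-0.29 to 0.44), -0.12 for E2F4 (-0.38 to 0.15), 0.20 for E2F6 (-0.07 to 0.47), 0.16 for E2F7 (-0.65 to 0.97) and 0.23 for E2F8 (-0.97 to 1.42). None of the 7 passed in the limma fit (0% of all genes, smallest adjusted p of a member 0.795). The intervals for E2F1, E2F2, E2F7 and E2F8 are wide, and the test does not show that the compounds act alike on these genes.

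**Figure D5:**
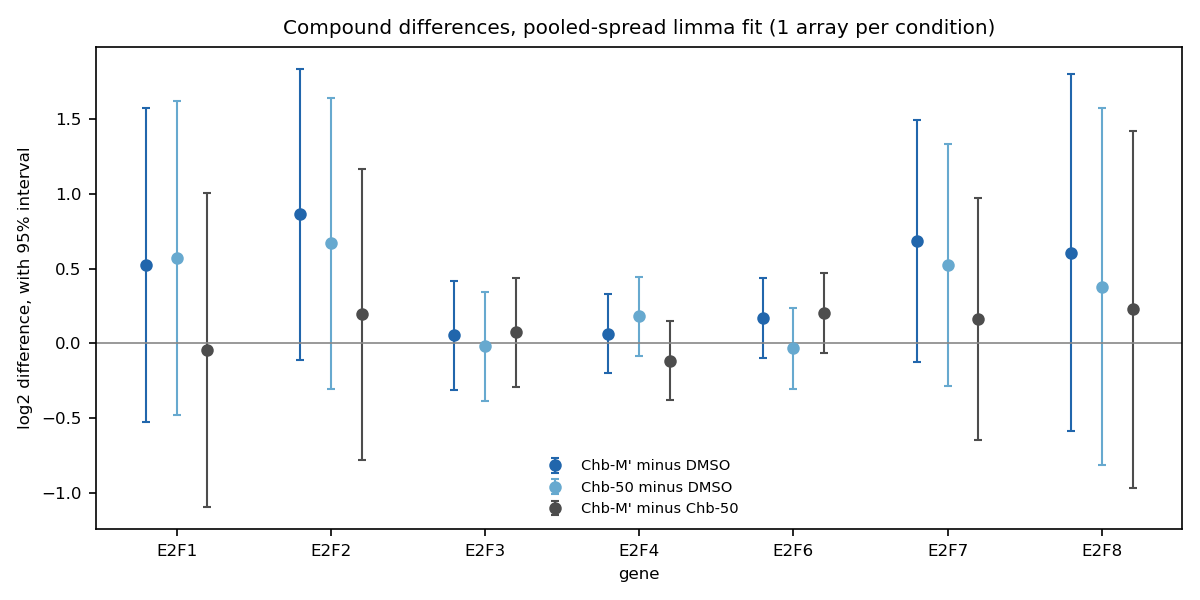
Log2 difference of each tested member between compound arrays, with 95% intervals from the pooled-spread limma fit, 1 array per condition. E2F2 has the highest point for Chb-M' minus DMSO, 0.86, and the intervals of all 7 members include 0 in all 3 comparisons.

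Upstream of the pocket proteins, the CDK inhibitor CDKN1A, a p53 target, rose with Chb-M' by 1.44 (SE 0.209, limma adjusted p = 0.0470) and had 1.23 with Chb-50 (adjusted p = 0.189). Each arm is 1 array, so this SE and p rest on the spread of the knockdown arrays. It was the 1 of 5 tested CDK inhibitors that passed, against 0.609% of all genes, and no gene passed for Chb-M' when shLuc, shRUNX2, shRUNX3, the array labelled shRUNX1+shRUNX2, shRUNX2+shRUNX3 or the triple knockdown was left out. The E2F target genes had a median of 0.26 with Chb-M' and 0.16 with Chb-50, with 5 of 32 negative in each and 0 past the test. Of all genes, 44.9% were negative with Chb-M' and 49.5% with Chb-50. The E-type cyclins lay highest among the G1 genes with Chb-M', CCNE2 at 1.02 and CCNE1 at 0.80, neither past the test.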

How the data were processed

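Per the submitters' processing notes, the deposited log2 values per transcript cluster came from RMA, Affymetrix Expression Console 1.3.1 and Transcriptome Analysis Console 1.0, with no role or order given. The genome build behind the probes: not given in the sources used here. The log2 scale was read from the deposited values, from 0.48 to 12.74, and the arrays had medians of 5.86 to 5.91 over tested genes. Each array is 1 sample, and their number limits the precision.

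Of 53617 clusters, 23558 had 1 gene symbol, 2155 several and 27904 none listed. Names were updated through a RefSeq table (GRCh38.p14), where 22271 of the 1-symbol clusters were found and 3 symbols changed. For 618 genes with more than 1 cluster the one with the highest mean was used. Genes whose highest level reached 3.80, the median of 1-symbol values, were tested.

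Fits used limma 3.58.1 in R 4.3.3 with eBayes and Benjamini-Hochberg adjustment over all 12147 genes, at a threshold of 0.05. They comprised additive terms for the 3 shRNAs on the 8 knockdown arrays (4 residual degrees of freedom), an added interaction of the RUNX1 and RUNX3 shRNAs (3), a slope over the number of targets (6), and a pooled-spread fit on 11 arrays. The fitting was tested on simulated data. Alternatives were the level filter, the choice of cluster, normalization, the prior, protein-coding genes alone, pairwise interactions, fold thresholds and leaving out each knockdown array.

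The members and lists were chosen with earlier results of these data known. Genes named are the members, the listed genes, RUNX1 to RUNX3, and, from the 3 protein-coding genes whose levels correlate best with each member, all 3 for E2F1, E2F2, E2F7 and E2F8 and the closest one for E2F3, E2F4 and E2F6. LOC100506403, which shares the RUNX1 cluster, and E2F3-IT1 were named outside this rule, E2F3-IT1 after its values were seen. Promoter sequences are from RefSeq.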

Additional observations from a re-analysis of the deposited data

How the results depend on the processing

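No paired analysis was possible because each condition has 1 array and the labels number all of them replicate 1, so a block on that number would have a single level. For the RUNX1 shRNA effect, 4 of 7 members passed with pairwise interactions, which leaves 1 residual degree of freedom, and 0 to 3 when an array was left out, with 3 without the array labelled shRUNX1. Over all genes that fit called 110 with the stricter filter, 68 with an intensity trend, 391 with pairwise interactions and 0 to 817 with an array left out, and the RUNX3 shRNA effect 0 to 1. The RUNX1 shRNA difference with the RUNX3 shRNA called 0 to 4 members and 0 to 1262 genes with an array left out, 495 genes without a filter and 1702 with an intensity trend, and the difference without the RUNX3 shRNA 0 to 1 genes. The slope called 0 to 1 members and 0 to 234 genes with an array left out, and 0 genes without a filter and with quantile normalization. Chb-M' minus DMSO called 7 genes without a filter, 128 with the stricter filter, 49 with the mean of clusters and 0 to 77 with an array left out, and 0 members in each. At 1.5-fold, 4 members differed on the triple knockdown and 4 on shRUNX1+shRUNX3, 1 differed on the array labelled shRUNX1+shRUNX2, 3 with Chb-M' and 1 with Chb-50. At 3-fold, 1 differed on the triple knockdown and 1 on shRUNX1+shRUNX3. The share of all genes at 1.5-fold and at 3-fold was not counted, so these counts cannot be set against a background.

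Estimates near 0 changed sign. With an array left out, the RUNX2 shRNA effect ranged from -0.32 to 0.13 for E2F1, -0.11 to 0.24 for E2F2, -0.026 to 0.0249 for E2F4, -0.0424 to 0.0237 for E2F6 and -0.36 to 0.10 for E2F8. E2F3 ranged from -0.0163 to 0.11 for the RUNX3 shRNA, from -0.0675 to 0.11 for the RUNX1 shRNA difference with the RUNX3 shRNA and from -0.0004 to 0.13 for the slope, E2F4 from -0.10 to 0.0273 for the interaction, and E2F6 from -0.034 to 0.0171 for the slope. Median centring gave -0.0182 for E2F4 (RUNX2 shRNA) and -0.0044 for E2F3 (RUNX1 shRNA difference with the RUNX3 shRNA). The cause was not tested, and signal over background is unknown. The estimates of E2F1, E2F2, E2F7 and E2F8 for the RUNX1 shRNA difference with the RUNX3 shRNA stayed negative in all 16 alternatives.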

Other observations

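The members' profiles over the 11 arrays are described by Pearson's r on log2 levels. The arrays share their probes and normalization, and both experiments enter, so no p is given. E2F1 and E2F8, an activator and a repressor, had the closest profiles within the family (r = 0.971), followed by E2F1 and E2F2 (0.933), E2F2 and E2F8 (0.879) and E2F7 and E2F8 (0.846). E2F3 had r between -0.22 and 0.20 with every other tested member. Among 10475 protein-coding genes, those closest to E2F1 were the helicase subunit MCM7 (0.985), MYBL2, which encodes B-MYB (0.982), and the origin recognition subunit ORC6 (0.981). Closest to E2F8 were CZIB (0.984), the kinetochore protein ZWINT (0.982) and the helicase cofactor GINS2 (0.981). E2F7 had the nucleoporin NUP85 (0.983), the DNA ligase LIG1 (0.980) and the splicing factor SRSF4 (0.976), and E2F2 had the serum response factor SRF (0.969), THAP7 (0.968) and the recombination factor XRCC3 (0.966). For E2F3, E2F4 and E2F6 the closest genes were KBTBD2 (0.854), CCDC59 (0.927) and VANGL1 (0.896).

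E2F3-IT1, a transcript within E2F3 that is no member of the family, lay between 3.81 and 4.15 over the knockdown arrays and read 4.49 with Chb-M' and 4.54 with Chb-50, against 4.06 with DMSO, while E2F3 itself differed by 0.05 and -0.02. DMSO minus shLuc was -0.12 for E2F7, -0.10 for E2F3, -0.29 for E2F4 and 0.03 for E2F6, with a median of -0.32 over the 32 E2F target genes.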
